A study of Mus musculus with 6 samples.

Results

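The genes described here are 8 genes of lung surfactant and of the alveolar type 2 (AT2) cell, taken by name from a table of raw read counts for 49315 mouse genes. They are the 4 surfactant protein genes Sftpa1, Sftpb, Sftpc and Sftpd, the lipid transporter gene Abca3, the protease gene Napsa, the phosphate transporter gene Slc34a2 and the transcription factor gene Etv5. They were chosen as a list of names, with no threshold on a measured value. RNA came from lung cells of male C57BL/6J mice (C57BL/6 in the labels) that had received either saline (sham) or Bleomycin sulfate (BLM) by oropharyngeal instillation 21 days earlier. Cells were sequenced unsorted, or after sorting on Lamp1 at the cell surface into Lamp1-depleted and Lamp1-enriched cells. Each of the 6 conditions has 1 library, 2 to 3 lungs of a group were pooled for each digestion, and the age of these mice is not given in the sources used here. Lamp1 is a lysosomal membrane protein whose display at the cell surface the study uses to mark senescent cells, and BLM is a DNA-damaging drug that causes lung fibrosis in mice.

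AT2 cells are the epithelial cells that make surfactant, the film of lipid and protein that lowers surface tension in the alveoli, and they are also progenitors of the flat alveolar type 1 cells. Surfactant lipids are loaded by ABCA3 into lamellar bodies, where the precursors of the hydrophobic proteins SP-B and SP-C are cut to their mature forms with the help of napsin A, the product of Napsa. SP-A and SP-D, the products of Sftpa1 and Sftpd, are collectins that bind microbes and are also made by some airway cells. Slc34a2 encodes a sodium-phosphate cotransporter of the apical AT2 membrane, and Etv5 encodes an ETS factor downstream of FGF signalling that maintains AT2 identity.

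The promoters of surfactant protein genes are known targets of NKX2-1, the transcription factor that specifies lung epithelium. The 250 bases before the RefSeq transcription start (GRCm38.p6) are printed for Sftpa1 and Sftpb, which were called lower after BLM in unsorted cells, and for Abca3, which was not. Capitals mark CTCAAG, the core of the NKX2-1 motif. They also mark TATAAA, the core promoter box that places the start of transcription. Each was searched on both strands, and no match of one overlapped a match of the other. The windows are chr14:41131538-41131787 on the plus strand for Sftpa1, chr6:72304360-72304609 on the plus strand for Sftpb and chr17:24351773-24352022 on the plus strand for Abca3.
Sftpa1: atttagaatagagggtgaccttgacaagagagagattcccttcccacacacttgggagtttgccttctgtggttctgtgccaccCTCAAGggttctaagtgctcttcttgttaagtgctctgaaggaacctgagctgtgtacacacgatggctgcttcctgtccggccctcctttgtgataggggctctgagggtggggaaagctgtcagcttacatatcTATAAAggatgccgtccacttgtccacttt
Sftpb: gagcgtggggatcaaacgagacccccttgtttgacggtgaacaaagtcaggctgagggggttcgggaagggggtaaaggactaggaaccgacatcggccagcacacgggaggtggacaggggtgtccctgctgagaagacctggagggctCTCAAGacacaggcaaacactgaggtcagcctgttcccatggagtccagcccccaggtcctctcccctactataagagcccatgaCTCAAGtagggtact
Abca3: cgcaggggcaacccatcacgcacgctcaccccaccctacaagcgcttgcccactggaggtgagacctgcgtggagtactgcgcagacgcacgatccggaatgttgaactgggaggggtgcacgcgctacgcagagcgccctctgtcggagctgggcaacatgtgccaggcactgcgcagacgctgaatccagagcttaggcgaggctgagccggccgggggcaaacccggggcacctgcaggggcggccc
The Sftpa1 window holds 1 match to CTCAAG and 1 to TATAAA, the Sftpb window holds 2 matches to CTCAAG, and the Abca3 window holds neither. GC content was 50% for Sftpa1, 58.4% for Sftpb and 67.6% for Abca3. Of 6 promoter windows found for the 8 genes, 2 hold CTCAAG and 1 holds TATAAA, against 13.3% and 12.4% of 32851 promoter windows of this length. Neither motif is in the window of Slc34a2, which was called lower after BLM in unsorted cells, or in both windows of Etv5, which was not. These are matches of letters and not measured binding.

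The libraries held 30236120 to 52918696 counted reads, and the 8 genes together took 0.0150% to 0.172% of them. In BLM Lamp1-depleted cells 38.4% of the reads lay on Gm26917, a noncoding gene, against at most 7.10% in the other libraries. Library sizes were scaled by TMM (trimmed mean of M values), and all levels in CPM (counts per 1000000 scaled reads) are on that scale. A ratio between 2 libraries carries a 95% Clopper-Pearson interval that covers counting error only, since no condition was repeated. A gene was called higher or lower at a 2-fold or larger ratio, if the larger of its 2 counts was 10 or more, and all 8 genes passed that minimum in every comparison. Lamp1 RNA was higher in Lamp1-enriched than in Lamp1-depleted cells, by 1.75 (log2) in sham and 1.77 in BLM. Between the same cells the leukocyte gene Ptprc had log2 ratios of -3.68 and -2.87, and the endothelial gene Pecam1 of 2.25 and 2.56. For Lamp1-enriched over unsorted cells Lamp1 was at 0.62 (0.59 to 0.65) in sham but at -0.41 (-0.44 to -0.38) in BLM. The sort itself was on surface protein and not on RNA. Epcam, the standard epithelial surface marker, had only 55 to 306 reads per library.

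After BLM, the 4 surfactant protein genes and Slc34a2 were lower in unsorted lung cells, while Abca3 and Napsa stood at nearly the same level as in sham. Sftpc was lower by 7.88-fold, Sftpa1 by 4.94-fold, Slc34a2 by 3.96-fold, Sftpd by 2.82-fold and Sftpb by 2.45-fold. Of the 8 genes, 5 were called lower against 16.0% of the 22772 genes tested, and 0 were called higher against 13.9%. Their median log2 ratio was -1.39, beside -0.07 over all genes tested. In these bulk libraries, fewer AT2 cells and less RNA per AT2 cell cannot be told apart.

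**Figure D1:**
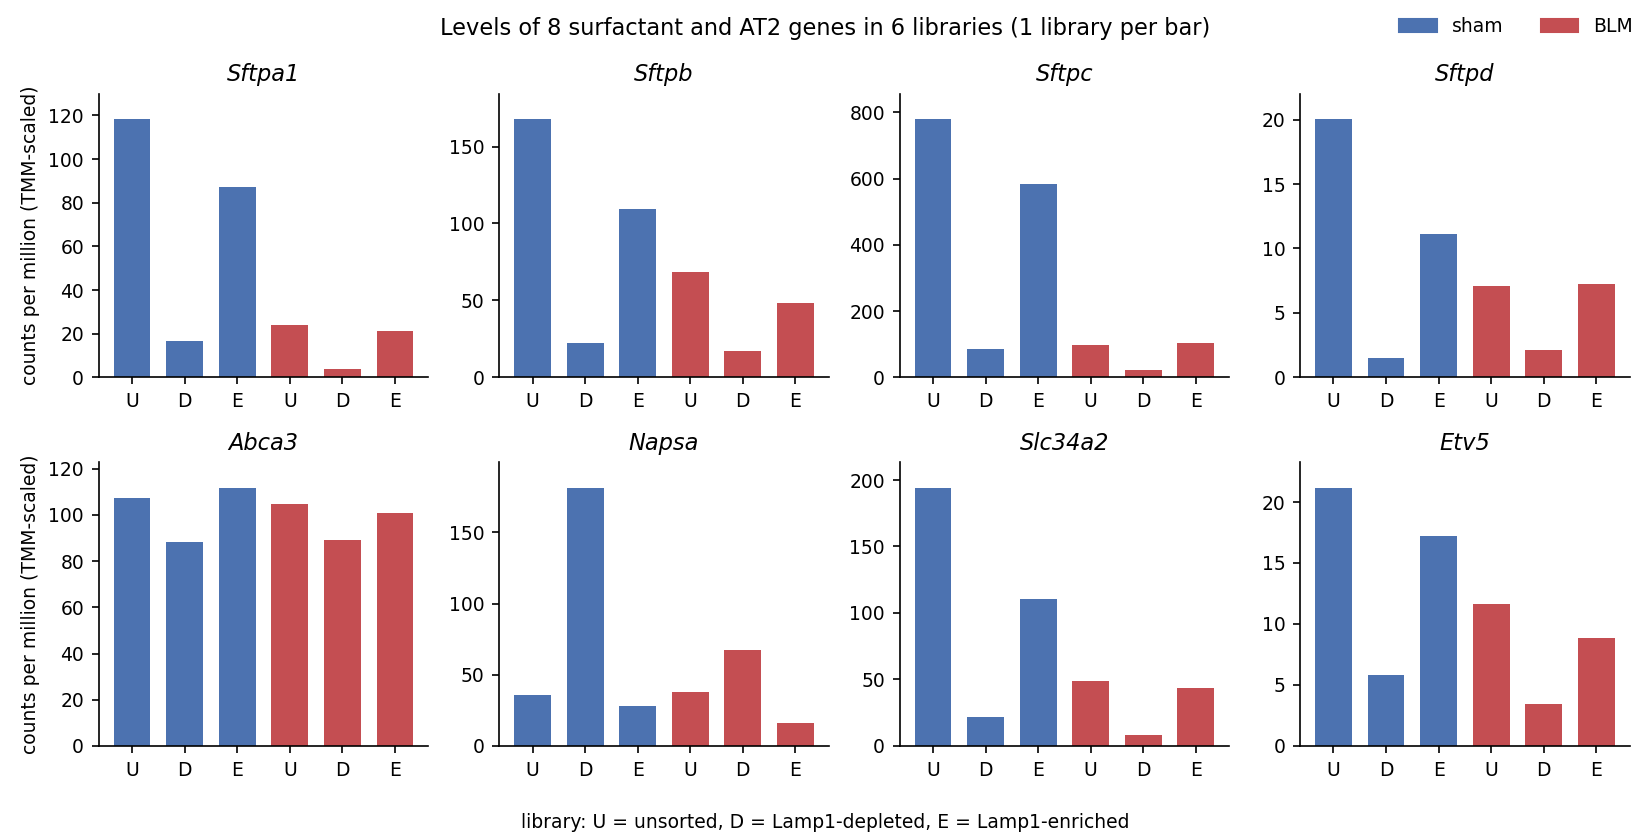
TMM-scaled CPM (vertical axes, each from 0) of the 8 genes in unsorted (U), Lamp1-depleted (D) and Lamp1-enriched (E) cells of sham and BLM mice, with 1 library per bar. Sftpc stands at 779 in sham unsorted and at 98.9 in BLM unsorted cells, Abca3 stays between 88.4 and 112 in all 6 libraries, and Napsa is highest, at 181, in sham Lamp1-depleted cells.

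Sftpc (ENSMUSG00000022097; chr14:70520949-70524081, minus strand, GRCm38) encodes SP-C, a protein made by AT2 cells alone among lung cells. It had 37826 reads in sham unsorted, 3883 in sham Lamp1-depleted and 26913 in sham Lamp1-enriched cells. The BLM libraries in the same order had 3902, 483 and 5686 reads. Every BLM library was below the sham library of the same fraction, and the Lamp1-depleted library was the lowest in both treatments. The log2 ratio of BLM over sham was -2.98 (-3.03 to -2.93) in unsorted, -2.49 (-2.53 to -2.45) in Lamp1-enriched and -1.90 (-2.04 to -1.76) in Lamp1-depleted cells. It was the lowest of the 8 genes in unsorted and in Lamp1-enriched cells.

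Sftpb (ENSMUSG00000056370; chr6:72304610-72314371, plus strand) encodes SP-B, which is needed to spread the lipid film and is also made by airway club cells. It had 8142, 1010 and 5037 reads in the sham libraries (unsorted, Lamp1-depleted, Lamp1-enriched), and 2697, 366 and 2642 reads in the BLM libraries. The drop was smaller than for Sftpc in all 3 fractions. The log2 ratio was -1.29 (-1.36 to -1.23) in unsorted, -1.18 (-1.24 to -1.11) in Lamp1-enriched and -0.35 (-0.53 to -0.18) in Lamp1-depleted cells. The last value became -1.07, past 2-fold, with total counts.

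Sftpa1 (ENSMUSG00000021789; chr14:41131782-41136452, plus strand) encodes the collectin SP-A. Its reads were 5740, 760 and 4016 in the sham libraries and 944, 79 and 1163 in the BLM libraries, in the same order. The log2 ratio of BLM over sham was between -2.30 and -2.03 in the 3 fractions, and the intervals of Lamp1-depleted and unsorted cells overlap. Sftpd (ENSMUSG00000021795; chr14:41172214-41185149, minus strand), the gene of the second collectin and a neighbour of Sftpa1, had 972, 67 and 511 reads in sham and 280, 44 and 395 in BLM libraries. Its ratio was not alike in the fractions: -1.49 (-1.69 to -1.30) in unsorted, -0.62 (-0.81 to -0.42) in Lamp1-enriched and 0.50 (-0.08 to 1.07) in Lamp1-depleted cells. The last value rests on 67 and 44 reads, its interval spans 0, and it became -0.22 when libraries were scaled by total counts.

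Slc34a2 (ENSMUSG00000029188; chr5:53038081-53071664, plus strand), the AT2 phosphate transporter gene, had 9421, 993 and 5084 reads in sham and 1935, 172 and 2363 reads in BLM libraries. It was lower in BLM in all 3 fractions, with log2 ratios of -1.98 (-2.06 to -1.91) in unsorted, -1.35 (-1.42 to -1.28) in Lamp1-enriched and -1.42 (-1.66 to -1.18) in Lamp1-depleted cells. Etv5 (ENSMUSG00000013089; chr16:22381309-22439719, minus strand) had 1027, 265 and 793 reads in sham and 459, 73 and 482 in BLM libraries. Its log2 ratios of -0.86 (-1.02 to -0.70), -0.96 (-1.13 to -0.80) and -0.75 (-1.14 to -0.37) in unsorted, Lamp1-enriched and Lamp1-depleted cells lay short of 2-fold. With total counts the ratio was -1.12 in unsorted and -1.46 in Lamp1-depleted cells, both past 2-fold.

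Abca3 (ENSMUSG00000024130; chr17:24351950-24410201, plus strand) varied least of the 8 genes. It had 5211, 4028 and 5140 reads in sham and 4128, 1883 and 5489 in BLM libraries. Its level in CPM spanned 1.26-fold over the 6 libraries, against 34.1-fold for Sftpc and 6.12-fold for Etv5, although within that narrow span its log2 level had a Pearson's r of 0.82 to 0.94 with the 4 surfactant protein genes over the 6 libraries. The log2 ratio of BLM over sham was -0.04 (-0.10 to 0.02) in unsorted, -0.15 (-0.20 to -0.09) in Lamp1-enriched and 0.01 (-0.07 to 0.09) in Lamp1-depleted cells, and it was -0.71 in Lamp1-depleted cells with total counts. The gene overlaps D330041H03Rik on the other strand, which had 104 to 418 reads, and whether strand was used in counting is not given in the sources used here. Abca3 was at 107 CPM in sham unsorted and 88.4 in sham Lamp1-depleted cells, where Sftpc was at 779 and 85.2. There were 7.26 Sftpc reads per Abca3 read in sham unsorted and 0.964 in sham Lamp1-depleted cells. The cells behind the Abca3 reads were not tested.

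Napsa (ENSMUSG00000002204; chr7:44572380-44586862, plus strand) was the gene that followed the Lamp1-depleted cells. It had 1746 reads in sham unsorted, 8262 in sham Lamp1-depleted and 1296 in sham Lamp1-enriched cells, and 1506, 1424 and 883 reads in the BLM libraries. The log2 ratio of BLM over sham was 0.09 (-0.01 to 0.19) in unsorted cells, -0.80 (-0.92 to -0.67) in Lamp1-enriched and -1.43 (-1.51 to -1.35) in Lamp1-depleted cells, and it was -0.18 in unsorted cells with total counts. Napsa and leukocyte reads stood high in the same libraries: the summed level of 11 leukocyte markers was 4904 CPM in sham Lamp1-depleted and 1914 in BLM Lamp1-depleted cells, against 243 to 1031 in the other libraries. None of the 11 markers was at 0 in any library. Per 1000 Ptprc reads there were 77.8, 69.9 and 139 Napsa reads in the sham libraries in the same order, and 44.1, 53.2 and 93.6 in BLM. The part of leukocytes in the Napsa reads was not tested.

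**Figure D2:**
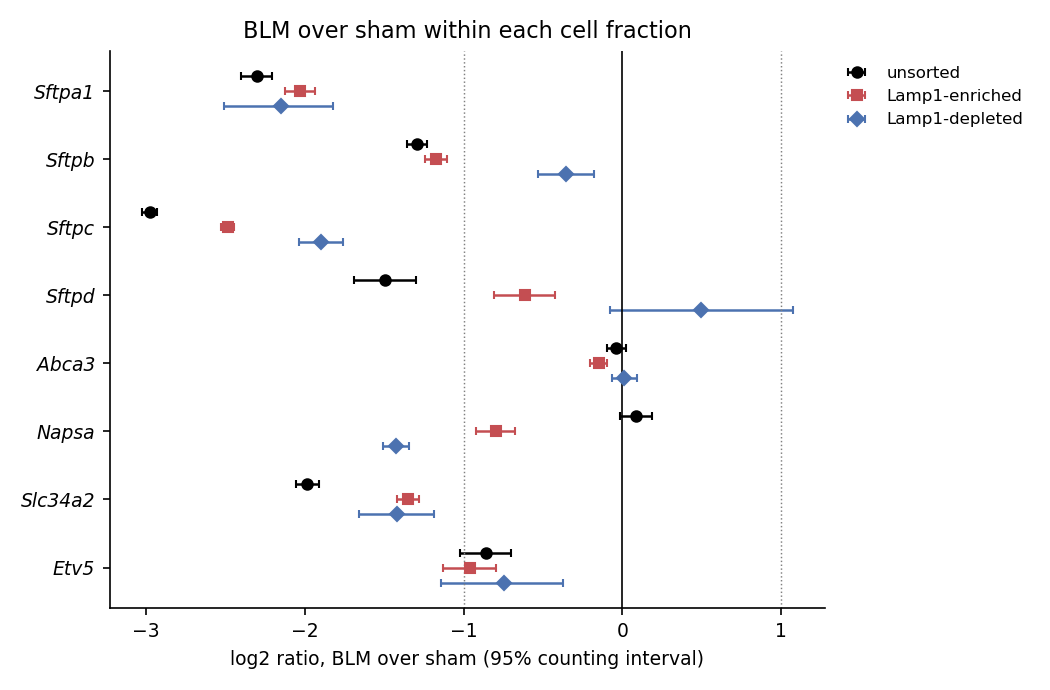
Log2 ratio of BLM over sham (horizontal axis) for each of the 8 genes in unsorted, Lamp1-enriched and Lamp1-depleted cells, with 95% counting intervals and dotted lines at 2-fold. Sftpc, Sftpa1 and Slc34a2 lie past 2-fold lower in all 3 fractions, Abca3 lies near 0 in all of them, and Sftpd runs from -1.49 in unsorted to 0.50 in Lamp1-depleted cells.

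Within the sorted fractions the same comparison called 4 genes lower each. In Lamp1-enriched cells these were Sftpc, Sftpa1, Slc34a2 and Sftpb, against 7.86% of all genes tested, and 0 genes were called higher against 10.2%. In Lamp1-depleted cells they were Sftpa1, Sftpc, Napsa and Slc34a2, against a background of 22.3%, and 0 were called higher against 13.7%. With total counts 6 genes were lower in Lamp1-depleted cells, Sftpb and Etv5 being added. The median log2 ratio of the 8 genes was -1.07 in Lamp1-enriched cells, beside 0.00 for all genes tested, and -1.08 in Lamp1-depleted cells, beside -0.20. For Sftpc the drop in unsorted cells was larger than in Lamp1-enriched cells by a log2 difference of 0.49 (0.43 to 0.55, counting error only). For Abca3 the same difference was -0.11 (-0.19 to -0.03), with the opposite sign, but it became 0.16 with total counts and 0.09 with total counts without Gm26917, where that of Sftpc was 0.77 and 0.69. On the TMM scale the difference was 0.88 (0.61 to 1.15) for Sftpd, 0.63 for Slc34a2, 0.27 for Sftpa1 and 0.12 for Sftpb. It was -0.10 for Etv5 and -0.88 (-1.04 to -0.73) for Napsa. None of these differences has a replicate.

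The make-up of the surfactant protein reads also differed between treatments, and this comparison does not depend on how libraries were scaled. Of the reads of Sftpa1, Sftpb, Sftpc and Sftpd together, Sftpc held 71.8% (71.4 to 72.2) in sham unsorted and 49.9% (48.8 to 51) in BLM unsorted cells. Sftpb held 15.5% (15.1 to 15.8) and 34.5% (33.4 to 35.5). The Sftpc share was 67.9% and 73.8% in the depleted and the enriched sham cells, against 49.7% and 57.5% in BLM, so the 3 sham libraries lay above the 3 BLM libraries. There were 4.65, 3.84 and 5.34 Sftpc reads for each Sftpb read in the sham libraries in the same order, and 1.45, 1.32 and 2.15 in BLM. Sftpd, the smallest share, was 1.17% to 1.85% in the sham and 3.58% to 4.53% in the BLM libraries. The 4 genes together took 0.129% of all reads in sham unsorted and 0.0197% in BLM unsorted cells. Sftpa1, Sftpb and Sftpd are also made by airway cells, so the shares depend on the mix of cells as well. Scgb1a1, a club cell gene, had log2 ratios of BLM over sham of -0.47 in unsorted, -1.37 in Lamp1-enriched and 1.79 in Lamp1-depleted cells. The part of airway cells in these shares was not tested.

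**Figure D3:**
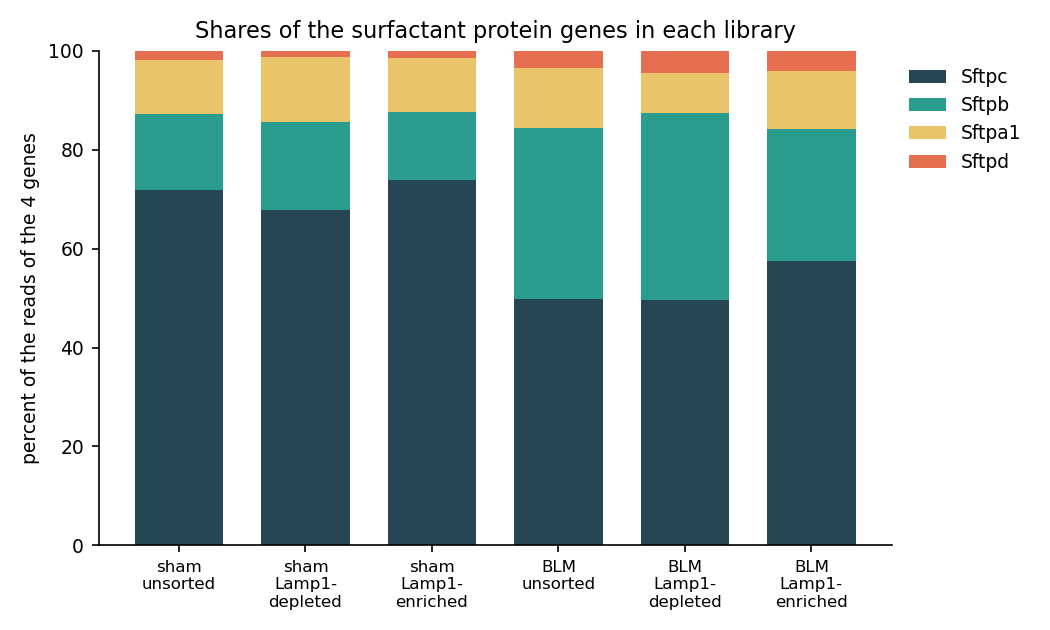
Percent of the summed reads of Sftpa1, Sftpb, Sftpc and Sftpd (vertical axis) held by each gene, in 6 libraries with 1 library per bar. Sftpc holds 67.9% to 73.8% in sham and 49.7% to 57.5% in BLM libraries, and Sftpb takes most of the difference.

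In CPM per kilobase of exon, the order of the genes in sham unsorted cells was Sftpc at 754, Sftpb at 85.2, Sftpa1 at 41.3, Slc34a2 at 38.7, Napsa at 13.5, Abca3 at 11.5, Sftpd at 8.28 and Etv5 at 5.16. In BLM unsorted cells it was Sftpc at 95.7, Sftpb at 34.7, Napsa at 14.4, Abca3 at 11.2, Slc34a2 at 9.78, Sftpa1 at 8.37, Sftpd at 2.94 and Etv5 at 2.84. Sftpc stayed first in both, 8.84 times Sftpb in sham and 2.75 times Sftpb in BLM. Napsa and Abca3 stood below Sftpa1 and Slc34a2 in sham and above them in BLM. The last pair in BLM, Sftpd and Etv5, differed by less than counting error (ratio 1.04, 0.889 to 1.2), and every other neighbouring pair in both orders differed by more than its counting error.

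In both treatments 6 of the 8 genes were called higher in Lamp1-enriched than in Lamp1-depleted cells. In sham the log2 ratio of Lamp1-enriched over Lamp1-depleted cells was 2.91 (2.55 to 3.31) for Sftpd, 2.78 (2.73 to 2.83) for Sftpc, 2.39 for Sftpa1, 2.34 for Slc34a2, 2.30 for Sftpb and 1.57 for Etv5. It was 0.34 (0.28 to 0.40) for Abca3 and -2.69 (-2.77 to -2.60) for Napsa. In BLM it was 2.51 (2.18 to 2.86) for Sftpa1, 2.41 for Slc34a2, 2.19 for Sftpc, 1.79 for Sftpd, 1.48 for Sftpb, 1.35 for Etv5, 0.18 for Abca3 and -2.06 for Napsa. In each treatment 1 gene, Napsa, was called lower. The background was 27.5% higher and 25.2% lower in sham, and 34.3% higher and 22.6% lower in BLM. Sftpb, Sftpc and Sftpd had smaller ratios in BLM than in sham, with a log2 difference of BLM minus sham of -0.82 (-1.01 to -0.64), -0.59 (-0.73 to -0.45) and -1.12 (-1.70 to -0.54), counting error only. With total counts these differences were -0.09, 0.14 and -0.39, so that the sign for Sftpc turned. For Sftpa1 the difference was 0.12 (-0.23 to 0.47), and it was 0.85 with total counts and -0.04 with DESeq2 size factors.

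Markers of other cells moved with the sort as well. All 11 alveolar type 1 genes and all 10 endothelial genes were called higher in the Lamp1-enriched library of either treatment, as were 7 of 9 fibroblast genes in sham and 9 of 9 in BLM. Leukocyte markers were called lower, 10 of 11 in sham and 11 of 11 in BLM. Over all genes tested, 27.5% were called higher and 25.2% lower in sham, and 34.3% and 22.6% in BLM. Of the 12 pan-epithelial genes, 8 were called higher in sham and 7 in BLM, but the log2 ratio of Epcam was -0.77 (-1.14 to -0.41) in sham and 0.09 (-0.36 to 0.56) in BLM. The part of these cells in the ratios of the 8 genes was not tested.

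**Figure D4:**
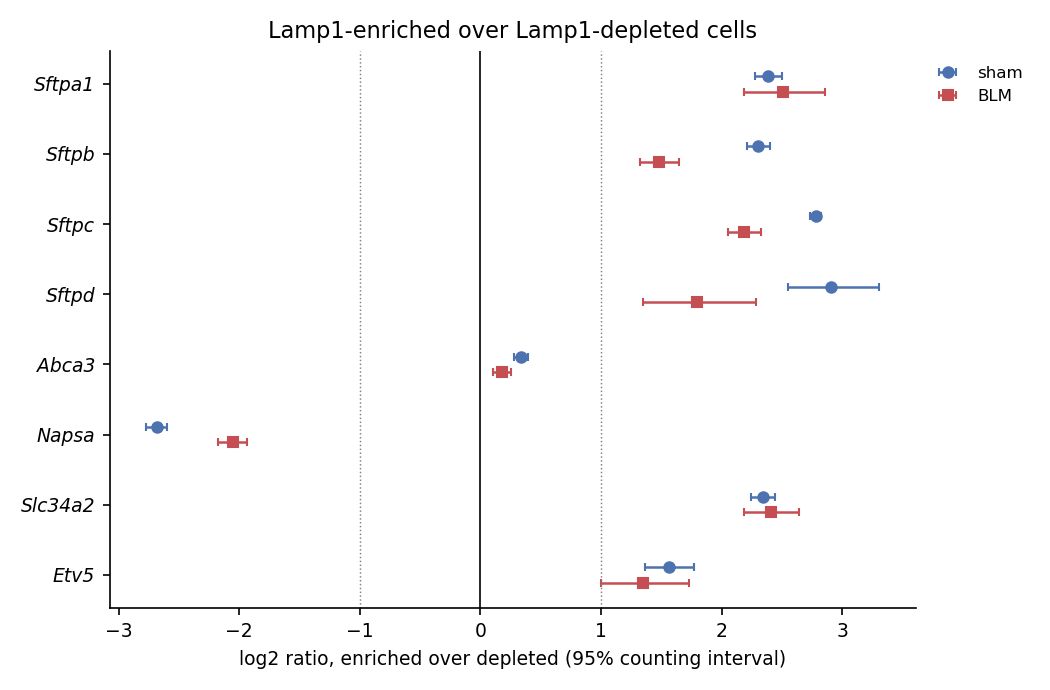
Log2 ratio of Lamp1-enriched over Lamp1-depleted cells (horizontal axis) for each of the 8 genes in sham and BLM mice, with 95% counting intervals and dotted lines at 2-fold. Sftpa1, Sftpb, Sftpc, Sftpd, Slc34a2 and Etv5 lie past 2-fold higher in both treatments, Abca3 lies within 2-fold and Napsa past 2-fold lower.

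Treating sham and BLM as the repeats of the sort, the edgeR quasi-likelihood test with Benjamini-Hochberg adjustment over all genes called the same 6 genes higher and Napsa lower in Lamp1-enriched cells. The background was 21.5% of 20593 genes higher and 19.2% lower. The log2 fold change was 2.39 ± 0.38 (SE) for Sftpc, with an edgeR adjusted p of 6.09e-09, and 2.35 for Sftpa1, 2.28 for Slc34a2, 2.27 for Sftpd and 1.80 for Sftpb, with edgeR adjusted p from 1.43e-09 to 2.42e-05. It was 1.37 ± 0.42 for Etv5 (edgeR adjusted p = 0.0043), 0.16 ± 0.34 for Abca3 (edgeR adjusted p = 0.742) and -2.47 ± 0.36 for Napsa (edgeR adjusted p = 6.79e-11). Each SE was worked back from the fold change and the test statistic. Each sign was the same in 2 of 2 treatments. The fit had 1 residual degree of freedom and took its spread from all genes together. Sham and BLM are different treatments and not replicates, so the p-values do not measure how well the sort repeats. With total counts as the scaling the Etv5 call was lost (edgeR adjusted p = 0.063).

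Compared with unsorted cells, 6 of the 8 genes were lower in the Lamp1-depleted cells, and in the Lamp1-enriched cells the highest log2 ratio was 0.06 in sham (Abca3) and 0.08 in BLM (Sftpc). Lamp1-depleted cells were at least 2-fold below unsorted cells for 6 genes in sham, against 30.4% of genes tested, and for the same 6 genes in BLM, against 33.6%. Sftpd was lower there by 13.5-fold and Sftpc by 9.15-fold in sham, and Sftpa1 by 6.38-fold and Sftpc by 4.32-fold in BLM. In Lamp1-enriched cells 0 genes were at least 2-fold below unsorted cells in sham, against 15.9%, and 1 gene, Napsa, in BLM, against 19.1%. Levels in CPM in sham unsorted cells were above those of both sorted fractions for 6 of 8 genes, against 25.7% of 23233 genes with 10 or more reads in 1 of the 3 libraries, and in BLM for 5 of 8, against 26.4% of 22801. Sftpc, for example, was at 779 CPM in sham unsorted, 585 in Lamp1-enriched and 85.2 in Lamp1-depleted cells. Napsa went the other way, with a log2 ratio of Lamp1-depleted over unsorted cells of 2.33 (2.26 to 2.41) in sham and 0.82 (0.71 to 0.93) in BLM.

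The summed reads of a pan-epithelial gene list were not lower after BLM. Its 12 genes had 4492 reads in sham unsorted and 5810 in BLM unsorted cells, with a median log2 ratio of 0.57. Of these, 2 were called higher, against 13.9% of all genes tested, and 0 lower, against 16.0%. The 2 were Cdh1, from 1609 to 2832 reads, and Cldn4. The next best-covered genes, Krt19 and Krt7, had log2 ratios of 0.05 and -0.14. Cldn4, named after its values were seen, a tight junction gene also listed for transitional epithelial cells, went from 7 to 259 reads. Relative to the pan-epithelial reads of the same library, the log2 ratio of BLM over sham in unsorted cells was -3.65 (-3.72 to -3.57) for Sftpc, -2.98 for Sftpa1, -2.65 for Slc34a2, -2.17 for Sftpd, -1.97 for Sftpb, -1.53 for Etv5, -0.71 for Abca3 and -0.58 for Napsa. With Epcam alone as the denominator it was -3.60 for Sftpc, -0.66 for Abca3 and -0.54 for Napsa. In numbers of reads, there were 8.42 Sftpc reads per pan-epithelial read in sham unsorted and 0.672 in BLM unsorted cells. Cdh1 is also known from alveolar macrophages, and the summed level of 11 alveolar macrophage markers was 652 CPM in sham unsorted and 4332 in BLM unsorted cells. The part of those cells in the denominator was not tested. Cdh1 and Cldn4, both called higher, are in the pan-epithelial denominator, and no ratio without them is given here.

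Other genes of AT2 cells were divided as the 8 genes were. Of 18 further AT2 markers and regulators, 8 were called lower in BLM unsorted cells, against 16.0% of all genes tested. Of the rest, 1 was called higher, against 13.9%, and 9 lay between, with a median log2 ratio of -0.93 for the list. Cxcl15, a lung chemokine, went from 9962 to 1161 reads (-2.80), Hc, which encodes complement C5, from 3856 to 785 (-2.00), and Lamp3, a lamellar body membrane gene, from 2456 to 362 (-2.46). Nkx2-1, named after its values were seen, had 559 reads in sham and 483 in BLM unsorted cells, a log2 ratio of 0.09. The gene called higher, Cebpa, also named after its values were seen, encodes a factor used by myeloid cells as well as AT2 cells and went from 492 to 3858 reads. Foxa2, named after its values were seen, was at 0 in BLM Lamp1-depleted cells and had 4 to 70 reads in the other libraries.

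Genes of surfactant lipid synthesis and proprotein processing did not share the drop. Of 17, 3 were called higher, 1 lower and 13 lay between in BLM unsorted cells, with a median of 0.13. Over all genes tested 13.9% were called higher and 16.0% lower. The lower gene was Adgrf5, a receptor that restrains surfactant secretion and is also strong in endothelium (139917 to 48469 reads, -1.23). The higher ones, named after their values were seen, were Ctsh, a protease that cuts pro-SP-B and pro-SP-C (1.98), Hps1 (1.25) and Hps4 (1.08). For Lamp1-enriched over Lamp1-depleted cells these 3 had log2 ratios of -2.20, -1.82 and -0.46 in sham and -1.83, -2.65 and -1.08 in BLM. For BLM over sham Ctsh was at 0.41 in Lamp1-enriched and 0.04 in Lamp1-depleted cells. The cells behind these reads were not tested. The best-covered others were Scd1, a fatty acid desaturase gene with 21843 and 15418 reads, and Atp11a, a lipid flippase gene with 7351 and 6543 reads. Of 10 genes of surfactant uptake and breakdown, several of which act in alveolar macrophages, 7 were called higher and 0 lower, with a median of 2.25, against the same shares over all genes. The cholesterol exporter gene Abcg1 went from 6158 to 22014 reads (2.14), while Prdx6, a phospholipase and peroxidase gene of lamellar bodies, had 6070 and 3617 reads (-0.45) and Cd36, a fatty acid receptor gene, 101107 and 41777 (-0.98). For Lamp1-enriched over unsorted BLM cells Cd36 was at 1.78, beside medians of -3.08 for alveolar macrophage markers and 1.47 for endothelial genes. The cells behind the Cd36 reads were not tested. For BLM over sham in unsorted cells the alveolar macrophage markers moved with the uptake and breakdown list, with 9 of 11 called higher, 1 (Krt79, named after its values were seen) lower and a median of 2.82, and none at 0.

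Among 10 genes of FGF signalling to epithelium, 0 were called higher, against 13.9% of all genes tested, and 4 lower, against 16.0%, with a median of -0.55. The 4, named after their values were seen, were Fgf10 (391 to 66 reads, -2.26) and Fgf7 (498 to 86, -2.23), the mesenchymal ligands, Fgfr2 (1221 to 361, -1.46), their epithelial receptor, and the feedback inhibitor gene Spry2 (610 to 193, -1.36). The best-covered genes lay within 2-fold: Dusp6, a phosphatase gene induced by FGF, at 0.15, Spred1 at -0.50 and Spred2 at -0.57. Etv4, the close relative of Etv5, named after its values were seen, had 41 and 23 reads.

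**Figure D5:**
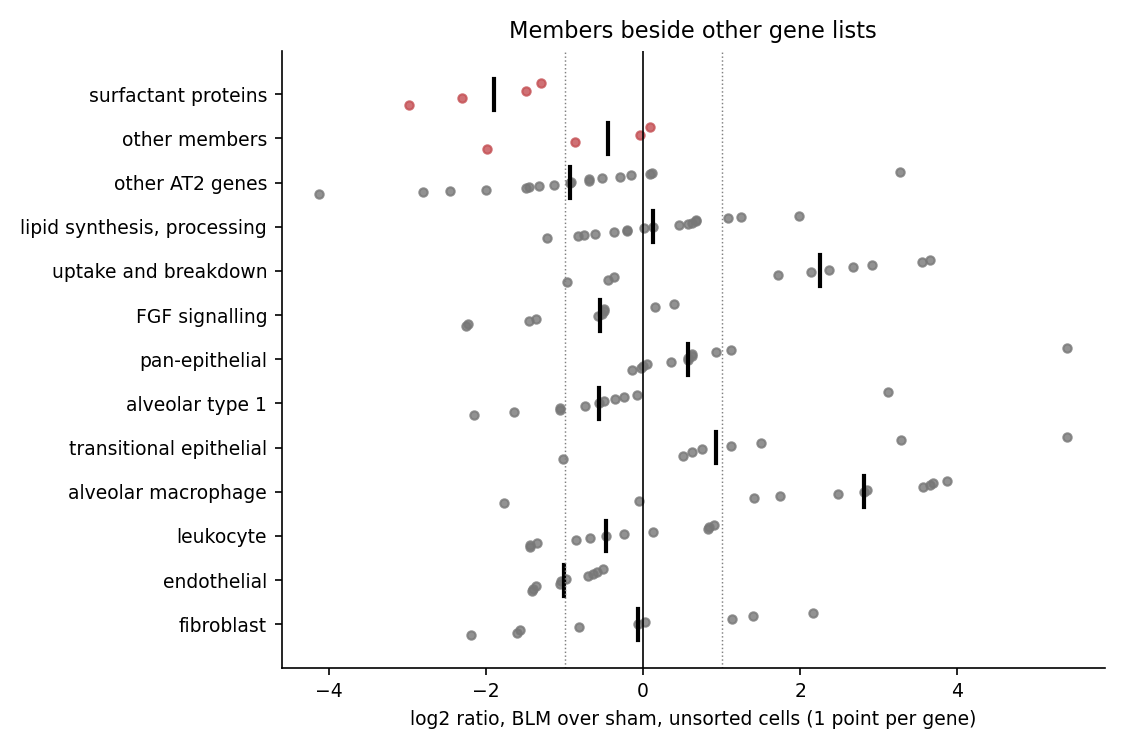
Log2 ratio of BLM over sham in unsorted cells (horizontal axis) for the 8 genes, in 2 groups, and for 11 other gene lists, with 1 point per gene, a bar at each list's median and dotted lines at 2-fold. The surfactant protein genes all lie past 2-fold lower, the 18 other AT2 genes have a median of -0.93, and the uptake and breakdown genes and alveolar macrophage markers have medians of 2.25 and 2.82.

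Markers of the other cells gave the following counts in the same comparison, with the called genes named after their values were seen. Each count stands beside 13.9% of all genes tested called higher and 16.0% called lower. Of 11 alveolar type 1 genes, 4 were called lower (Hopx, Rtkn2, Akap5 and Clic5) and 1 higher (Pdpn), with a median of -0.56. For Lamp1-enriched over unsorted BLM cells Pdpn had a log2 ratio of -2.25, beside a median of 0.48 for its list. Of 8 transitional epithelial genes, 4 were called higher (Cldn4, Lgals3, Tnip3 and Cdkn1a) and 1 lower (Hbegf), with a median of 0.93. For Lamp1-enriched over unsorted BLM cells Lgals3 was at -2.79 and Tnip3 at -2.52, beside -0.26 for Cldn4 and -0.34 for Cdkn1a. The median of the alveolar macrophage markers there was -3.08. The cells behind the reads of these genes were not tested. Of 7 club and airway secretory genes, 2 were called lower (Aldh1a1 and Bpifa1) and 0 higher, with a median of -0.29, and Scgb1a1, the main club cell product, had 4694 and 2756 reads. Of 7 ciliated genes, 4 were called higher (Rsph1, Tekt1, Dnah5 and Foxj1) and 1 lower (Tppp3), with a median of 2.40, and Rsph1 and Tekt1 were at 0 in at least 1 library. Of 10 endothelial genes, 5 were called lower (Cldn5, Erg, Ramp2, Kdr and Egfl7) and 0 higher, with a median of -1.01. Of 11 leukocyte markers, 3 were called lower (Cd79a, Ms4a1 and Ncr1) and 0 higher, with a median of -0.47. Ptprc and Coro1a, 2 of the best-covered, had positive log2 ratios of 0.91 and 0.84, short of 2-fold. The summed level of the leukocyte list was 636 CPM in sham unsorted and 1031 in BLM unsorted cells. Of 9 fibroblast genes, 3 were called higher (Col1a1, Col1a2 and Col3a1) and 3 lower (Tcf21, Pdgfra and Npnt), with a median of -0.06. The summed level of the endothelial list was 5870 CPM in sham unsorted and 3333 in BLM unsorted cells, and the part of the change in other cells in the ratios of the 8 genes was not tested.

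Genes outside the AT2 list had a closely similar pattern over the 6 libraries. Among 17935 genes with at least 50 reads in some library, likeness to the mean pattern of the 4 surfactant protein genes was measured as the root mean square distance between mean-centred log2 levels. The 4 surfactant protein genes themselves lay at some distance from their mean: Sftpb at 0.34 (rank 48), Sftpa1 at 0.38 (rank 75), Sftpc at 0.47 (rank 160) and Sftpd at 0.53 (rank 255). Slc34a2 was closest of the other 4 genes, with a distance of 0.17 and rank 2, followed by Etv5 with 0.55 and rank 302, Abca3 with 1.30 and rank 6633 and Napsa with 2.21 and rank 15874. The nearest genes outside the 8 were Hc at 0.11, Gm43085 at 0.20, Nox4 at 0.22, Vstm4 at 0.24, Abca8b and Vgll3 at 0.25, and Aldh1a1 and Ctdspl at 0.26. Of these 8 neighbours, 1, Hc, was among the listed AT2 genes. Between pairs of the 8 genes, Pearson's r of log2 levels over the 6 libraries was 0.99 for Sftpa1 and Sftpc and 0.99 for Slc34a2 and Etv5, and it was negative for Napsa with each of the other 7. These coefficients describe 6 points that share libraries, treatments and sorts.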

How the data were processed

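RNA-seq of mouse lung cells was analysed from 6 libraries, 1 per condition, grouped by their labels. The authors deposited unnormalized read counts for each gene, and the submitters' processing notes name Trimmomatic 0.36, STAR 2.5.2b, featureCounts, Subread 1.5.2, DESeq2 and the build GRCm38, with settings and use of strand not given in the sources used here. Depth was 30236120 to 52918696 counted reads.

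Counts were scaled by TMM (edgeR 4.0.16, R 4.3.3) over the 6 libraries. Log2 ratios used a prior count of 0.5 scaled to library size, and 95% Clopper-Pearson intervals cover counting error only (Python 3.11.15, scipy 1.17.1). A gene was tested if the larger of its 2 counts was 10 or more, and a 2-fold ratio was a call. With 1 library per condition, no p-value was computed between conditions. Lamp1-enriched and Lamp1-depleted cells were compared by the edgeR quasi-likelihood test on the 4 sorted libraries, blocking on treatment, with filterByExpr, calls at a Benjamini-Hochberg adjusted p under 0.05, and a biological coefficient of variation of 0.316. Its p-values rest on a spread taken from all genes together, so a gene's own spread between the libraries did not count. Sham and BLM are different treatments and not replicates, so these p-values do not measure how well the sort repeats. Positions and exon lengths came from GENCODE M21, and promoter windows from RefSeq; Sftpc, Sftpd and Napsa have no promoter printed.

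All 8 genes were named. Of 13 other lists, written from general knowledge, the 3 genes with most reads in sham unsorted cells were to be named, and the 8 nearest in pattern; further genes are marked in the text as named after their values were seen. The genes and lists were chosen with earlier results of these data known. Of 147 listed genes, 3 had no single row (Areg, Siglecf and Itgam). The programs were tested on simulated data.

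Alternatives were DESeq2 1.42.0 size factors, total counts with and without Gm26917, a prior count of 2, a 4-fold call, at least 1 or 50 reads, and for the sorting test a DESeq2 Wald test, total counts, no filter or all 6 libraries. TMM factors without the BLM Lamp1-depleted library were added after seeing the data.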

Additional observations from a re-analysis of the deposited data

Results flagged for a closer look

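No gene of the 8 was flagged. Abcg1, a cholesterol exporter gene of the uptake list, had opposite signs of the Lamp1 sort in the 2 treatments: the log2 ratio of Lamp1-enriched over Lamp1-depleted cells was -0.58 (-0.64 to -0.52) in sham and 0.51 (0.44 to 0.58) in BLM, a difference of 1.09. Dusp6, an FGF-induced phosphatase gene, had opposite signs of BLM over sham in the sorted fractions: 0.66 (0.62 to 0.70) in Lamp1-enriched and -1.02 (-1.14 to -0.90) in Lamp1-depleted cells, a difference of 1.68. The intervals cover counting error only, each condition has 1 library, and neither difference was tested.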

How the results depend on the processing

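No paired analysis was possible because each condition has 1 library with no replicate number of its own, except that the sorting test blocked on treatment, and no replicate was left out. Scaling by total counts shifted every log2 ratio, by -0.26 for BLM over sham in unsorted and by -0.72 in Lamp1-depleted cells. No called ratio of the 8 genes changed sign under any alternative. A call needs a log2 ratio of at least 1 in size, and the largest scaling shift was -0.72. Scaling therefore could not turn the sign of a called ratio. Of 160 alternative values for the medians, counts and shares, 140 stayed within the limits set for them. These include counts under other read minimums, which could not move because all 8 genes passed each minimum. Of the alternative values for single genes, 245 stayed within their limits, 81 moved and 1, the Etv5 sorting test, lost its call.

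With total counts the median of the 8 genes was -1.66 for BLM over sham in unsorted and -1.80 in Lamp1-depleted cells, 2.15 and 2.20 for Lamp1-enriched over Lamp1-depleted cells in sham and BLM, -0.65 for Lamp1-enriched over unsorted sham cells (2 genes, Sftpd and Slc34a2, at least 2-fold lower) and -2.38 for Lamp1-depleted over unsorted BLM cells. With total counts without Gm26917 it was -1.57 for BLM over sham in unsorted cells, 2.11 for the sort in sham and -0.66 for Lamp1-enriched over unsorted sham cells (2 genes lower). At 4-fold, 2 genes were lower in BLM in unsorted (5% of all genes tested), 2 in Lamp1-enriched (2.09%) and 1 in Lamp1-depleted cells (7.65%), 3 were higher in BLM Lamp1-enriched than Lamp1-depleted cells (19.2%), and against unsorted BLM cells 0 were lower in Lamp1-enriched (9.03%) and 3 in Lamp1-depleted cells (16.6%). The sorting test called 8386 genes, and 4436 with total counts (2872 higher and 1564 lower, against 4422 and 3964), where Etv5 was lost at a log2 fold change of 1.65. Per transcript length, the Sftpc share was 84.8% in sham and 67.5% in BLM unsorted cells. TMM factors without the BLM Lamp1-depleted library, an alternative chosen after seeing the data, gave 5 genes lower in unsorted and 4 in Lamp1-enriched BLM cells. The cause of these shifts was not tested.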
